A study of Mus musculus with 24 samples.

Results

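The markers of the non-parenchymal cells of the liver were followed in whole liver RNA of mice that differed in the thyroid hormone receptor TRβ. The 39 genes were chosen by name, as genes known to mark Kupffer cells (11 genes), sinusoidal endothelial cells (8), stellate cells (12) and cholangiocytes (8). The rule names the genes without a measured value, but they were chosen with earlier results of these arrays known. Measured means over all arrays entered in the pick of each gene's probe set. Each gene was read from its brightest probe set among those annotated with its symbol alone. This gave a value for 38 of the 39 members, out of 18193 genes read this way. Spp1 of the cholangiocyte list had no such probe set. Of the 38, all reached the 40th percentile of their array in at least 3 arrays and were tested, and 35 did so on all 24 arrays. Krt7 did so on 19 arrays and Timp1 on 23. Dcn, with 1 value set missing, did so on all 23 arrays where it had a value.

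The 24 arrays formed 8 groups of 3. Male mice on a C57BL/6J background were wild type (WT), lacked TRβ (KO) or carried the TRβ substitutions E125G and G126S (GS), and male mice of the strain C57BL/6JCrl carried the TRβ substitution Y147F. All of them, the controls included, had been made hypothyroid for 3 weeks with an iodine-poor diet and antithyroid drinking water, and then received PBS or a single dose of T3, the active thyroid hormone. WT, KO and GS mice were 8 to 9 weeks old, drank 0.02% methimazole, 0.5% perchlorate and 0.3% saccharin and received 20 µg T3 per 100 g body weight. Y147F mice were 10 to 11 weeks old, drank 0.05% methimazole and 1% perchlorate and received 200 ng T3 per g, the same T3 dose in other units. Livers were taken 6 h after T3. Y147F arrays came from a later submission with no WT arrays of its own. For this genotype the mutation, strain, age, doses of the antithyroid drugs and submission therefore cannot be told apart. The sources used here do not name a cell type in which the receptor was altered. The number in each title differs between arrays, but nothing states that each array is a separate animal, and p-values measure the spread between these samples.

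Hepatocytes make up most of the liver's mass. Kupffer cells are the resident macrophages of the sinusoids, sinusoidal endothelial cells line these vessels with a fenestrated, scavenging wall, stellate cells store vitamin A and lay down matrix, and cholangiocytes form the bile ducts. TRβ is the main thyroid hormone receptor of hepatocytes, binds DNA at half-sites of the letters AGGTCA, and represses or activates its targets depending on whether T3 is bound. In RNA from whole liver, fewer cells of a type and less RNA per cell cannot be told apart, and this holds for every value below.

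The arrays were alike in overall level, with array medians from 5.88 to 6.00 on the log2 scale. The 3' minus 5' signal of the Actb control lay between 0.49 and 0.60 on 23 arrays and at 0.80 on Y147F PBS replicate 3. The mean of 11 hepatocyte markers lay between 13.73 and 13.89 on all arrays, and in each genotype the T3 arrays lay below the PBS arrays, with group means of 13.76 against 13.83 in WT, 13.76 against 13.82 in KO, 13.77 against 13.85 in GS and 13.77 against 13.87 in Y147F. Thrb, which encodes TRβ, read 6.82 to 7.25 on the KO arrays and 6.38 to 7.01 on the WT arrays. The sources used here do not give where its single probe set lies relative to the KO allele, so that it does not check the KO labels. Calls are adjusted p-values under 0.05 from limma, fitted to 14161 genes at once and adjusted by Benjamini and Hochberg within each comparison, and differences are in log2 units ± their standard error with 3 arrays per group.

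Of the 38 measured markers, 4 passed the test in any of the 16 comparisons: Vim and Cd24a for T3, and Krt23, Clec4f and again Cd24a between genotypes. With T3 in WT, 2 markers were called, both lower, beside 10.6% of all genes. In KO it was 1, lower, beside 0.177% of all genes. In GS none passed limma's test, beside 0.148% of all genes. Before adjustment 6 had a p under 0.05 there, beside 7.01% of all genes. In Y147F none passed limma's test either, beside 11.6% of all genes, and 3 had such an unadjusted p under 0.05, beside 24.5%. By the weaker measure that the 3 T3 arrays do not overlap the 3 PBS arrays, 9 markers stood apart in WT beside 29.5% of all genes, all lower with T3. In KO 9 stood apart, all lower, beside 15.2% of all genes. In GS 11 did, 4 higher and 7 lower, beside 13.1%, and in Y147F 5 did, all lower, beside 26.0%. In GS and KO the markers' shares of non-overlap lay above those of all genes, and in WT and Y147F they lay below them.

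**Figure D1:**
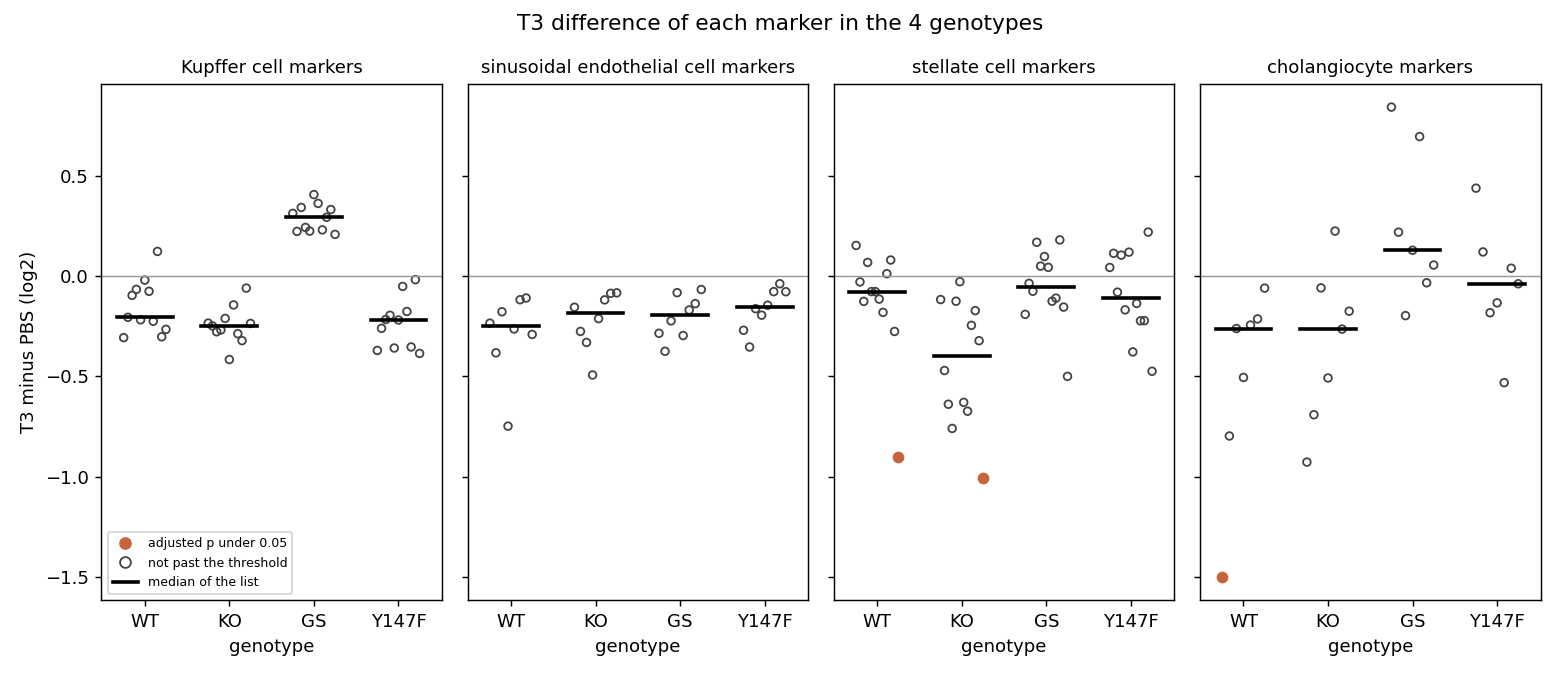
T3 minus PBS on the log2 scale (y axis) for each marker in WT, KO, GS and Y147F (x axis), in 1 panel per cell type. Open points are markers that did not pass the test, filled points are the 3 calls (Vim in WT and KO, Cd24a in WT), and black bars are list medians. All 8 sinusoidal endothelial markers lie below 0 in all 4 genotypes, and the Kupffer markers lie above 0 in GS and, except Marco in WT, below 0 in the others.

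The Kupffer cell markers moved as a block from array to array. They comprise Clec4f, Timd4, Vsig4 and Marco, surface receptors that take up particles and lipids, Cd5l, a secreted macrophage protein, Adgre1, the adhesion receptor used to stain macrophages, Csf1r, the receptor for the macrophage growth factor, Cd68 of the lysosome, and C1qa, C1qb and C1qc, the 3 chains of complement C1q. On GS T3 replicate 3 all 11 were the highest of their group, with a median of 0.68 above the mean of the other 2 arrays. On Y147F PBS replicate 2 all 11 were the highest, by a median of 0.70, and on Y147F PBS replicate 1 all 11 were the lowest. In WT and KO with T3, replicate 2 was the highest array for 9 of the 11. The mean over the 11 markers therefore ran from 8.83 to 9.66 in GS with T3 and from 8.67 to 9.64 in Y147F with PBS, but only from 8.81 to 8.92 in WT with PBS.

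Clec4f, a C-type lectin receptor found on Kupffer cells, was the 1 Kupffer marker called. Without T3 it read 9.37, 8.98 and 9.00 in WT, 9.77, 9.80 and 9.56 in KO and 9.29, 9.30 and 9.28 in GS. With T3 it read 8.92, 9.22 and 8.97 in WT, 9.54, 9.95 and 9.20 in KO and 9.39, 9.57 and 9.99 in GS. In Y147F it read 9.03, 9.73 and 9.25 with PBS and 9.29, 9.18 and 9.37 with T3. The KO arrays thus lay above all WT arrays without T3, and the GS arrays above all WT arrays with T3. Without T3 it was 1.51-fold higher in KO than in WT (0.59 ± 0.18, adjusted p = 0.0499 by limma). With T3 it was 1.53-fold higher in GS than in WT (0.61 ± 0.18, adjusted p = 0.0498 by limma). Both values lie at the threshold. When 1 of its 6 arrays was left out, the first call was lost in 5 cases (adjusted p = 0.0723 to 0.179) and kept only without WT PBS replicate 1. The second was lost in 5 of 6 (0.0673 to 0.23) and kept only without GS T3 replicate 1, and without GS T3 replicate 3 the difference was 0.44. With all arrays, the first call was lost in 5 of 11 other settings (adjusted p up to 0.131) and the second in 7 of 11 (up to 0.077).

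The bases before the annotated start of Clec4f are shown because they hold the half-site letters AGGTCA, read on the reverse strand as TGACCT and set in capitals. The window is chr6:83656117-83656366 on the minus strand of GRCm38.p6, from RefSeq, and holds the 250 bases before the start, 5′ to 3′.
Clec4f: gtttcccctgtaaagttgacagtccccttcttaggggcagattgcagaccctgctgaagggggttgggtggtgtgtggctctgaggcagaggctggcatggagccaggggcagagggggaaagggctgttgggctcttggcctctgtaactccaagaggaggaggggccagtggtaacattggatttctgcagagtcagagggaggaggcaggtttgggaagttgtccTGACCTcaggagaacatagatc
RefSeq windows were at hand for 26 of the 39 members, 28 windows in all. AGGTCA on either strand occurred in 7 of these 28, the window of C1qc among them, and in 14.0% of 32851 windows of the same length. The direct repeat of 2 such half-sites with 4 bases between them, searched on both strands, occurred in none of the 28 and in 0.0152% of all windows. A match is a description of letters and not a bound site.

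Cd5l, the brightest Kupffer marker, read 11.17, 10.74 and 10.85 in WT with PBS and 10.49, 10.96 and 10.66 in WT with T3. In KO it read 11.46, 11.36 and 11.16 with PBS and 11.13, 11.35 and 10.86 with T3. In GS it read 10.98, 11.14 and 11.14 with PBS and 11.00, 11.24 and 11.69 with T3, so that with T3 the GS arrays lay above every WT array. The values in Y147F were 10.83, 11.73 and 11.23 with PBS and 10.93, 10.94 and 10.85 with T3. GS with T3 exceeded WT with T3 by 0.61 ± 0.19, short of the threshold (adjusted p = 0.0685 by limma). Cd68 read 7.72, 7.84 and 7.80 in WT, 8.35, 8.23 and 8.05 in KO and 7.61, 7.80 and 7.67 in GS without T3, so that KO stood above both. With T3 it read 7.50, 8.22 and 7.57 in WT, 7.64, 8.18 and 7.56 in KO and 7.92, 7.85 and 8.52 in GS, groups that overlap. In Y147F it read 7.70, 8.49 and 7.96 with PBS and 7.74, 7.76 and 8.00 with T3. Without T3, Cd68 in GS differed from KO by -0.52 ± 0.21 (adjusted p = 0.443 by limma).

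As a list, the Kupffer markers were 11 of 11 higher in KO than in WT without T3, with a median of 0.16 beside 0.00 over all genes tested. Of 14 further Kupffer genes 10 lay higher and 4 lower there, with a median of 0.07 and a call for Id3 (0.56 ± 0.16, higher). The scavenger receptor Cd163 lay lower (-0.59 ± 0.20, adjusted p = 0.0948), its KO arrays at 7.07 to 7.29 and its WT arrays at 7.61 to 7.91. With T3 the Kupffer markers were 11 of 11 higher in GS than in WT, with a median of 0.47 beside 0.03 over all genes. Of the 11, 8 had an unadjusted p under 0.05 by limma, beside 18.8% of all genes. Without GS T3 replicate 3 all 11 were still above 0, with a median of 0.20. Timd4 showed the largest of these differences (0.79 ± 0.28), and Csf1r (0.49 ± 0.19), C1qa (0.43 ± 0.14) and Vsig4 (0.47 ± 0.23) lay near the median. The T3 difference within GS rested on that array: 11 of 11 were above 0 with it (median 0.29, beside 0.00 over all genes), and 8 of 11 without it (median 0.03). In Y147F the T3 difference rested on PBS replicate 2: 11 of 11 were below 0 with it (median -0.22) and 5 of 11 without it (median 0.00). In KO the mean with T3 was below that with PBS for 11 of 11 (median -0.25), with 2 of them not overlapping. In WT it was below for 10 of 11 (median -0.21), all of them overlapping, Marco being the exception at 0.12 ± 0.34. Marco and Timd4 were the most variable of the list within groups, with pooled SDs of 0.46 and 0.39, and C1qa the least with 0.19.

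C1qb and C1qc are neighbours on chromosome 4 and read 10.47 and 10.13 on GS T3 replicate 3 against 9.74 and 9.48 on GS T3 replicate 1. Their windows are shown because both hold GAGGAA, the core of the sites of PU.1, a transcription factor of macrophages, in capitals and on the reverse strand as TTCCTC. The windows are chr4:136886201-136886450 and chr4:136892915-136893164 on the minus strand of GRCm38.p6, from RefSeq.
C1qb: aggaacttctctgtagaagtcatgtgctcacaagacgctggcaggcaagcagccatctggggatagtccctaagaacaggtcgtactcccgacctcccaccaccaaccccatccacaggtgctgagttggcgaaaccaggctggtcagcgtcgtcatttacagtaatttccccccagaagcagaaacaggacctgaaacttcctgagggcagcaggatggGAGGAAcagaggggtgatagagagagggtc
C1qc: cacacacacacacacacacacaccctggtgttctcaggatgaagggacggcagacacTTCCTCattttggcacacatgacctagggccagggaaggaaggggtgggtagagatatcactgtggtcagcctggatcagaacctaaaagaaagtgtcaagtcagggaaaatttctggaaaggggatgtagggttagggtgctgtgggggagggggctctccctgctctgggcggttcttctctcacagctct
GAGGAA on either strand occurred in 6 of 8 Kupffer marker windows, 5 of 7 of cholangiocyte, 3 of 8 of stellate and 1 of 5 of sinusoidal endothelial markers, and in 23.3% of all windows. The letters were thus found in most windows of both the cholangiocyte and the macrophage genes.

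The sinusoidal endothelial markers varied least of the 4 lists, with a median SD within groups of 0.13 against 0.26 for Kupffer, 0.30 for stellate and 0.27 for cholangiocyte markers. Stab1, Stab2 and Lyve1 are scavenger and hyaluronan receptors, Clec4g a lectin, Kdr the VEGF receptor, Pecam1 a junction protein, Fcgr2b the receptor that clears immune complexes, and Oit3 a secreted protein of these cells. All 8 lay lower with T3 than with PBS in each of the 4 genotypes, with medians of -0.25 in WT, -0.18 in KO, -0.20 in GS and -0.15 in Y147F, beside medians of all genes from -0.03 to 0.00. None of the 8 was called by limma in any genotype, and the number with an unadjusted p under 0.05 was 5 in WT, 2 in KO, 4 in GS and 2 in Y147F. The share of all genes with such a p was 23.2% in WT, 10.4% in KO, 7.01% in GS and 24.5% in Y147F. The smallest adjusted p was 0.0784, for Stab2 in WT. In KO the median was -0.06 without T3 replicate 1, and 2 of the 8 were then above 0. In WT all 8 stayed below 0 whichever array was left out. The hepatocyte marker mean also lay lower with T3 in every genotype, and its part in these differences was not tested. The 14 further endothelial genes went both ways, with 12 below 0 in WT, 9 in KO, 9 in GS and 10 in Y147F and medians of -0.11, -0.07, -0.02 and -0.08.

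Kdr was the 1 marker of the list whose T3 arrays did not overlap the PBS arrays in any genotype. It read 9.42, 9.26 and 9.33 with PBS and 9.23, 9.05 and 9.19 with T3 in WT, and 9.42, 9.32 and 9.34 against 8.83, 9.25 and 9.01 in KO. In GS it read 9.48, 9.25 and 9.36 with PBS and 9.13, 9.23 and 9.05 with T3, and in Y147F 9.50, 9.43 and 9.54 against 9.28, 9.34 and 9.36. The T3 differences were -0.18 ± 0.09 in WT, -0.33 ± 0.09 in KO, -0.22 ± 0.09 in GS and -0.16 ± 0.09 in Y147F, none past the threshold (adjusted p = 0.14 to 0.614 by limma). Kdr, Oit3, Lyve1 and Fcgr2b were picked for description after their values were seen. Oit3 stood apart in WT (-0.26 ± 0.10) and GS (-0.30 ± 0.10) but overlapped in KO (-0.21 ± 0.10) and Y147F (-0.15 ± 0.10).

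Clec4g, the brightest of the list, read 10.96, 10.93 and 10.77 with PBS and 10.52, 10.76 and 10.68 with T3 in WT. In KO it read 10.79, 10.59 and 10.88 with PBS and 10.65, 10.66 and 10.49 with T3. In GS it read 10.65, 10.85 and 10.74 with PBS and 10.47, 10.54 and 10.37 with T3, and in Y147F 10.74, 11.04 and 10.73 against 10.79, 10.31 and 10.61. The groups stood apart in WT and GS and overlapped in KO and Y147F. Lyve1 was the most variable member, with an SD within groups of 0.46 and a single low value of 7.81 on KO T3 replicate 1. Its T3 difference in WT was the largest of the list (-0.75 ± 0.34) and did not pass (adjusted p = 0.186 by limma). Fcgr2b was lower with T3 by -0.38 ± 0.15 in WT and -0.35 ± 0.15 in Y147F and was not called from its brightest probe set (adjusted p = 0.106 and 0.13). From other probe sets of Fcgr2b it was called lower in both, by -0.30 and -0.34 in WT (adjusted p = 0.0382 and 0.0483) and -0.36 in Y147F (adjusted p = 0.0332), in a limma fit over all probe sets added after the values were seen. Between genotypes none of the 8 was called, and the medians lay between -0.10 and 0.19.

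**Figure D2:**
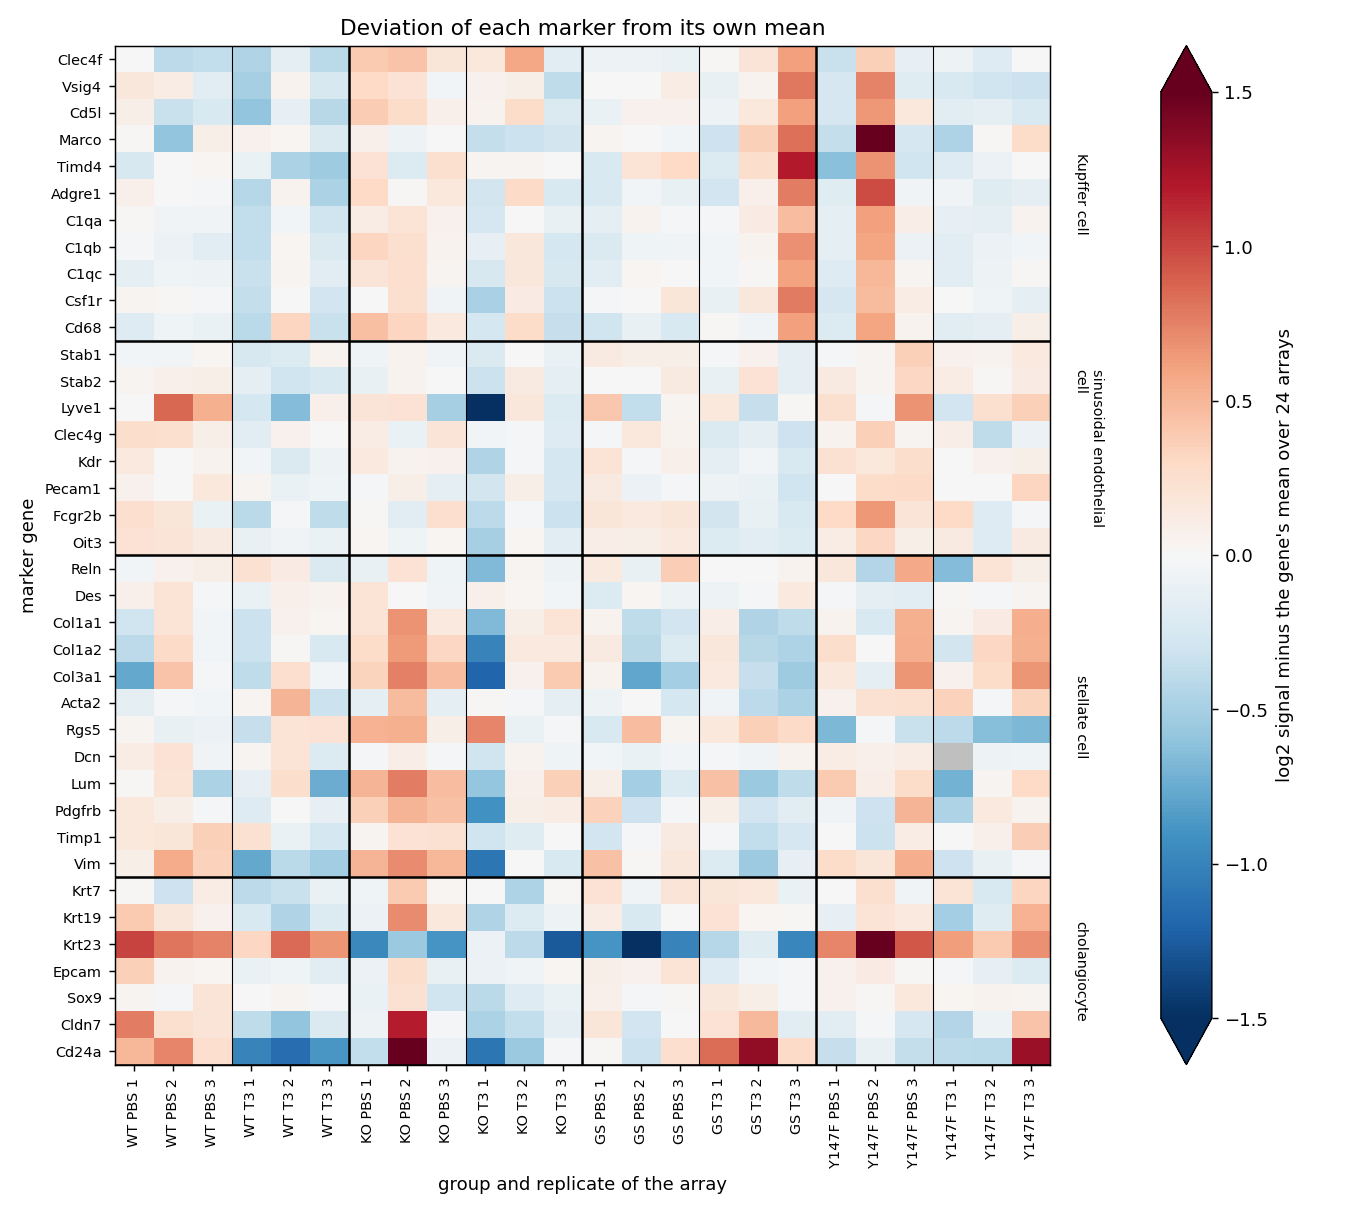
Deviation of each of the 38 markers (rows, by cell type) from its own mean over the 24 arrays, on the log2 scale, for every array (columns, by group and replicate). Red is above and blue below the mean, the scale ends at 1.5 either way, and grey marks the 1 missing value. Whole blocks of Kupffer markers are red on GS T3 replicate 3 and Y147F PBS replicate 2, and the row of Krt23 is blue across KO and GS and red across WT and Y147F.

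Of the 12 stellate cell markers, Vim was called. Vim encodes vimentin, the intermediate filament of mesenchymal cells, which endothelial cells and macrophages also make. It read 9.37, 9.84 and 9.62 with PBS and 8.51, 8.88 and 8.76 with T3 in WT, and 9.79, 9.99 and 9.78 against 8.20, 9.28 and 9.06 in KO. The GS arrays read 9.72, 9.30 and 9.46 with PBS and 9.08, 8.73 and 9.16 with T3, and in Y147F 9.55, 9.46 and 9.82 against 8.97, 9.17 and 9.27. In all 4 genotypes the 3 T3 arrays lay below the 3 PBS arrays. Vim fell 1.86-fold with T3 in WT (-0.90 ± 0.20, adjusted p = 0.00466 by limma) and 2.01-fold in KO (-1.01 ± 0.20, adjusted p = 0.0373 by limma). The T3 differences did not pass in GS (-0.50 ± 0.20, adjusted p = 0.625) or in Y147F (-0.47 ± 0.20, adjusted p = 0.143). No difference of the T3 response between genotypes was called for Vim.

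The fall of Vim in WT passed in all settings run, with differences from -1.02 to -0.73. Its other 2 probe sets were called in WT and in KO as well. With 1 of its 6 arrays left out, the call in KO was lost in 4 cases, without T3 replicate 1 (-0.68, adjusted p = 0.166) and without PBS replicate 1 (adjusted p = 0.0724), 2 (0.166) or 3 (0.0932). It was also lost when only the KO arrays were fitted (adjusted p = 0.346) and when only the first submission was (0.0883). Ngfr, the nerve growth factor receptor that marks stellate cells, also fell with T3 in WT (-0.49 ± 0.10, adjusted p = 0.00233 by limma) and in Y147F (-0.43 ± 0.10, adjusted p = 0.00712 by limma). Its T3 arrays lay below the PBS arrays in KO (7.29 to 7.58 against 7.72 to 7.94) and in GS (7.59 to 7.75 against 7.83 to 7.97) as well. Ngfr was the only one of 23 further stellate and matrix genes tested that was called with T3 in WT. In Y147F, 3 of the 23 were called, all lower, the others being Cxcl12 (-0.41 ± 0.11), a chemokine, and Ecm1 (-0.49 ± 0.15), a secreted matrix protein. All 3 were lowest on Y147F T3 replicate 1. Ecm1 read 10.42 there against 11.25 and 11.19, Cxcl12 10.96 against 11.36 and 11.34, and Ngfr 7.30 against 7.57 and 7.59. Whether these calls hold without that array was not tested.

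The window before the start of Vim, chr2:13574061-13574310 on the plus strand of GRCm38.p6, is shown beside that of Clec4f because the gene was called lower with T3 in WT and, less firmly, in KO. It holds no AGGTCA on either strand and so has no capitals, and none of the 8 windows of stellate cell markers holds these letters.
Vim: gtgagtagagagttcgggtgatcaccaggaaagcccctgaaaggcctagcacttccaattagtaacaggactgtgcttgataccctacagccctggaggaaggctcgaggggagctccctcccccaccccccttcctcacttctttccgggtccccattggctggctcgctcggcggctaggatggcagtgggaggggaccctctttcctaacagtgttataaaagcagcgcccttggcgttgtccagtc
No match says only that these letters are not in this window.

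The other stellate markers fall into matrix genes (Col1a1, Col1a2 and Col3a1 of the fibrillar collagens, the proteoglycans Dcn and Lum, the secreted Reln and the protease inhibitor Timp1) and contractile or receptor genes (Acta2, Des, Rgs5 and Pdgfrb, the PDGF receptor of these cells). In KO, 12 of 12 lay lower with T3, with a median of -0.40 beside -0.01 over all genes, and 5 stood apart. KO T3 replicate 1 was the lowest of its group for 9 of the 12, by a median of 0.72 below the other 2 arrays over the list. Without that array 12 of 12 were still below 0, and the median was -0.25. Rgs5, a pericyte gene, went the other way on this array, at 10.66 against 9.82 and 9.91. In WT, GS and Y147F the list medians lay between -0.11 and -0.06, with 4, 5 and 5 of 12 above 0.

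Col3a1 read 9.05, 10.24 and 9.79 with PBS and 9.44, 10.07 and 9.78 with T3 in WT. In KO it read 10.15, 10.57 and 10.28 with PBS and 8.63, 9.88 and 10.20 with T3, and in GS 9.87, 9.03 and 9.31 against 9.96, 9.47 and 9.28. In Y147F it read 9.97, 9.68 and 10.48 with PBS and 9.88, 10.09 and 10.48 with T3. The KO PBS arrays lay above every GS PBS array, while WT PBS spanned both. Col1a2 read 8.83, 9.51 and 9.19 with PBS and 8.91, 9.24 and 9.00 with T3 in WT. In KO it read 9.50, 9.86 and 9.53 with PBS and 8.22, 9.38 and 9.38 with T3, and in GS 9.37, 8.81 and 9.02 against 9.40, 8.81 and 8.77. In Y147F it read 9.49, 9.23 and 9.78 with PBS and 8.95, 9.54 and 9.76 with T3. Its KO T3 arrays all lay below the KO PBS arrays, 1 of them by far more than the others.

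Col1a1 read 6.08, 6.58 and 6.34 with PBS and 6.06, 6.44 and 6.42 with T3 in WT, and 6.59, 7.05 and 6.53 against 5.72, 6.47 and 6.58 in KO. GS arrays held 6.44, 6.00 and 6.10 with PBS and 6.49, 5.93 and 6.01 with T3, and in Y147F 6.43, 6.16 and 6.91 against 6.42, 6.50 and 6.92. Again KO with PBS was the group with the highest mean. Lum read 8.87, 9.05 and 8.37 with PBS and 8.73, 9.11 and 8.11 with T3 in WT, and 9.36, 9.62 and 9.31 against 8.27, 8.93 and 9.21 in KO. The values in GS were 8.94, 8.34 and 8.64 with PBS and 9.29, 8.29 and 8.47 with T3, and in Y147F 9.24, 8.95 and 9.13 against 8.15, 8.89 and 9.15. The KO PBS arrays of Lum lay above all PBS arrays of the other 3 genotypes. Pdgfrb read 8.11, 8.04 and 7.92 with PBS and 7.76, 7.94 and 7.83 with T3 in WT, and 8.31, 8.46 and 8.39 against 7.04, 8.04 and 8.06 in KO. In GS it read 8.30, 7.64 and 7.93 with PBS and 8.04, 7.67 and 7.78 with T3, and in Y147F 7.90, 7.65 and 8.46 against 7.49, 8.10 and 8.00.

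Without T3 these 5 genes thus had their highest mean in KO. Of the 12 stellate markers 8 lay above WT in KO, and Reln, Des, Dcn and Timp1 lay below it, by -0.07 to -0.02. The 23 further stellate and matrix genes split into 11 above and 12 below, with a median of -0.03, Gfap called higher (0.27 ± 0.07) and Lrat lower (-1.15 ± 0.22). Against WT the differences were 0.67 ± 0.30 for Lum, 0.64 ± 0.34 for Col3a1, 0.45 ± 0.27 for Col1a2 and 0.36 ± 0.23 for Pdgfrb, with no call (smallest adjusted p = 0.212 by limma). Against KO, GS was different by -0.93 ± 0.34 for Col3a1 and -0.79 ± 0.30 for Lum, with no call (adjusted p = 0.37 and 0.385 by limma). In that comparison no marker of any list passed limma's test, beside 0.0847% of all genes. Before adjustment 6 had a p under 0.05, beside 8.53% of all genes. The arrays did not overlap for 16 of the 38 markers, 14 of them lower in GS and 7 of these in the stellate list, beside 14.4% of all genes. The stellate medians were 0.30 for KO against WT and -0.33 for GS against KO without T3, beside 0.00 and -0.01 over all genes, and both comparisons share the KO PBS arrays, as does T3 in KO. KO PBS replicate 2 was the highest of its group for 10 of the 12, and without it the medians were 0.20 and -0.25.

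Dcn, the brightest stellate marker, was nearly level. It read 12.25, 12.35 and 12.09 with PBS and 12.18, 12.34 and 11.93 with T3 in WT, and 12.12, 12.23 and 12.13 against 11.84, 12.19 and 12.07 in KO. In GS it read 12.10, 12.04 and 12.09 with PBS and 12.10, 12.08 and 12.19 with T3. In Y147F it read 12.24, 12.22 and 12.24 with PBS and 12.06 and 12.07 on T3 replicates 2 and 3, the value of replicate 1 being set missing, so that n = 2 there. Its group means spanned 0.20, against 0.93 for Col3a1, 0.95 for Rgs5 and 1.14 for Vim. Des, the muscle-type filament that marks quiescent stellate cells, spanned 0.19. Acta2, the actin of contractile cells, read 7.06 to 8.04 over all arrays, Reln 10.44 to 11.68 and Timp1 5.41 to 6.15. In Y147F, Rgs5 was lowest of all groups, at 9.53, 9.28 and 9.25 with T3.

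**Figure D3:**
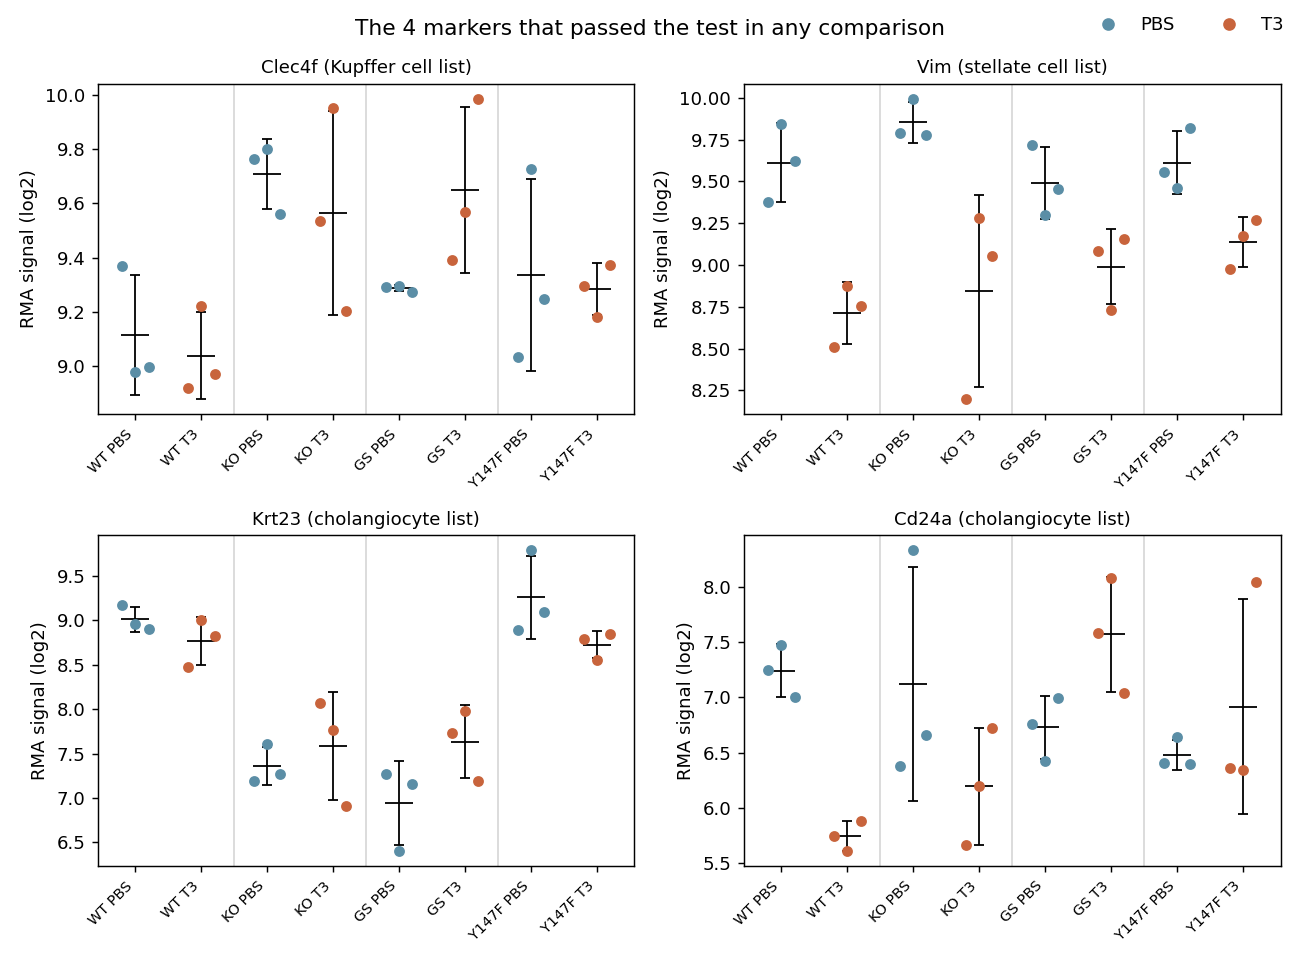
Log2 signal (y axis) of the 4 called markers, Clec4f, Vim, Krt23 and Cd24a, on each array by group (x axis). Blue points are PBS arrays and orange points T3 arrays, and black marks are the group mean ± SD over 3 arrays. T3 arrays of Vim lie below the PBS arrays in every genotype, Krt23 is low in KO and GS with and without T3, and Cd24a is lowest in WT with T3 (5.61 to 5.88).

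Krt23 gave the largest genotype difference of all the markers. It encodes a type I keratin, a filament protein of epithelia, and stands here in the list of cholangiocyte markers, of which it is the brightest. With PBS it read 9.18, 8.96 and 8.90 in WT, 7.20, 7.61 and 7.27 in KO, 7.27, 6.40 and 7.15 in GS and 8.89, 9.79 and 9.10 in Y147F. With T3 it read 8.48, 9.01 and 8.82 in WT, 8.08, 7.77 and 6.91 in KO, 7.74, 7.99 and 7.19 in GS and 8.79, 8.56 and 8.84 in Y147F. Every KO and GS array lay below every WT and Y147F array. Without T3, Krt23 was 3.15-fold lower in KO than in WT (-1.65 ± 0.28, adjusted p = 0.000889 by limma) and 4.20-fold lower in GS (-2.07 ± 0.28, adjusted p = 0.000143 by limma). With T3 it was 2.27-fold lower in KO (-1.19 ± 0.28, adjusted p = 0.0112 by limma) and in GS 2.19-fold lower (-1.13 ± 0.28, adjusted p = 0.0188 by limma). GS and KO were not called different from each other, with or without T3 (-0.42 ± 0.28 and 0.05 ± 0.28).

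The calls of Krt23 without T3 were kept in all settings run, with differences from -1.83 to -1.57 in KO and -2.23 to -1.80 in GS. With T3 the call in KO was lost without WT T3 replicate 2 (-1.07, adjusted p = 0.0595), without KO T3 replicate 3 (-0.85, adjusted p = 0.0705) and in the fit of only the arrays compared (adjusted p = 0.0624). The call in GS was lost without WT T3 replicate 2 (adjusted p = 0.0934) or 3 (0.0645) and without GS T3 replicate 3 (-0.91, adjusted p = 0.11). The T3 differences of Krt23 within genotypes were not called, at -0.24 ± 0.28 in WT, 0.22 ± 0.28 in KO, 0.69 ± 0.28 in GS and -0.53 ± 0.28 in Y147F, where the arrays did not overlap (adjusted p = 0.25 by limma). None of the other 6 cholangiocyte markers was called between KO and WT or between GS and WT without T3. Their differences without T3 lay between -0.13 and 0.18 in KO and between -0.51 and 0.18 in GS. Among 11 further biliary genes, 9 lay above WT and 2 below it in KO without T3, with a median of 0.07 and 1 call, higher. Cdh1 had the largest difference there (1.49). For GS without T3, 5 lay higher and 6 lower, with a median of -0.07 and no call, and Cdh1 again lay highest (1.03). The PBS arrays of Cdh1 ran from 7.54 to 8.24 for WT, 8.66 to 9.69 for KO and 8.42 to 9.28 for GS.

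The window before the start of Krt23, chr11:99493121-99493370 on the minus strand of GRCm38.p6, is shown because its gene differed most between genotypes. It holds no AGGTCA on either strand and so has no capitals.
Krt23: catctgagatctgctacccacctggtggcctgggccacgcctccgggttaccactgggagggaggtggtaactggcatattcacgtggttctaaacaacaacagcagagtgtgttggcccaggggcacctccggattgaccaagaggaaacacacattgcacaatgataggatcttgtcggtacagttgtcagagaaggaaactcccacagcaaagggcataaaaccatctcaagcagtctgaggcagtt

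Cd24a, a surface glycoprotein of ductal and progenitor cells that blood cells also carry, was the other called gene of the list. In WT it read 7.25, 7.48 and 7.00 with PBS and 5.74, 5.61 and 5.88 with T3. In KO it read 6.38, 8.33 and 6.66 with PBS and 5.66, 6.20 and 6.72 with T3, and in GS 6.76, 6.43 and 7.00 against 7.58, 8.08 and 7.04. In Y147F it read 6.40, 6.64 and 6.40 with PBS and 6.36, 6.35 and 8.04 with T3. T3 arrays lay below PBS arrays in WT and above them in GS, and single arrays stood out in KO with PBS and Y147F with T3. Cd24a fell 2.82-fold with T3 in WT (-1.50 ± 0.43, adjusted p = 0.0272 by limma). With T3 it was 3.54-fold higher in GS than in WT (1.82 ± 0.43, adjusted p = 0.0155 by limma). Its T3 response in GS exceeded that in WT by 2.34 ± 0.61 (adjusted p = 0.0393 by limma), the 1 response difference called among the markers, while the T3 difference within GS was not called (0.84 ± 0.43, adjusted p = 0.75).

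With 1 of its 6 arrays left out, the fall in WT kept its call in 1 case, without PBS replicate 3. It missed the threshold without T3 replicate 1, 2 or 3 (adjusted p = 0.0677, 0.0905 and 0.057) and without PBS replicate 1 or 2 (0.0732 and 0.0976), with differences from -1.62 to -1.38. The difference with T3 missed it without WT T3 replicate 2 (adjusted p = 0.0626) or GS T3 replicate 2 (0.0749). The response difference kept its call in 2 of 12 such fits, without WT PBS replicate 3 or GS T3 replicate 3, with differences from 2.08 to 2.60 and adjusted p-values up to 0.117. Of the other 2 probe sets of Cd24a, 1 was called lower with T3 in WT (-1.31, adjusted p = 0.0335) and 1 was not (-1.14, adjusted p = 0.0968). For GS against WT with T3, 1 was called (1.49, adjusted p = 0.0435) and 1 was not (1.17, adjusted p = 0.0884). Neither was called for the response difference (1.89 and 1.74, adjusted p = 0.113 for both).

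Cldn7, a tight junction protein of epithelia, and Krt19, the keratin used to stain bile ducts, ran beside Cd24a without passing. Cldn7 read 7.11, 6.59 and 6.55 with PBS and 5.97, 5.76 and 6.13 with T3 in WT, and 6.28, 7.53 and 6.32 against 5.88, 5.98 and 6.20 in KO. GS arrays read 6.53, 6.07 and 6.34 with PBS and 6.57, 6.83 and 6.20 with T3, and in Y147F 6.18, 6.32 and 6.10 against 5.91, 6.28 and 6.78. WT and KO stood apart with T3 below PBS, and GS and Y147F overlapped. The T3 difference was -0.80 ± 0.26 in WT (adjusted p = 0.0583 by limma), and -0.69 ± 0.26 was found in KO (adjusted p = 0.349 by limma). Krt19 read 6.97, 6.75 and 6.64 with PBS and 6.35, 6.12 and 6.38 with T3 in WT, and 6.49, 7.29 and 6.74 against 6.12, 6.37 and 6.50 in KO. For GS the values were 6.69, 6.34 and 6.58 with PBS and 6.80, 6.61 and 6.60 with T3, and in Y147F 6.46, 6.78 and 6.73 against 6.07, 6.40 and 7.10. Krt19 differed with T3 by -0.51 ± 0.20 in WT (adjusted p = 0.127 by limma), where the arrays did not overlap.

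In WT all 7 cholangiocyte markers lay below 0 with T3, 4 of them apart, with a median of -0.26. In KO 6 of 7 did (-0.26), and in GS and Y147F 2 and 4 of 7 did (medians 0.13 and -0.04). In the fit of only the WT arrays, 6 markers were called lower with T3: Vim, Cd24a, Cldn7, Krt19, Stab2 and Oit3. KO PBS replicate 2 was the highest of its group for all 7 cholangiocyte markers, by a median of 0.43, and Y147F T3 replicate 3 for 5 of 7. Without KO PBS replicate 2 the T3 median in KO was -0.13. Epcam, the epithelial adhesion molecule, depended on the probe set. Its brightest probe set differed with T3 in WT by -0.26 ± 0.10 (adjusted p = 0.0888), and its other probe set fell by 1.14 ± 0.30 (adjusted p = 0.0181 in the limma fit over all probe sets, added after the values were seen). That probe set read 7.02, 7.23 and 7.13 with PBS and 6.10, 5.75 and 6.10 with T3 in WT. It was also higher in GS than in WT with T3 (1.11, adjusted p = 0.0385), where the brightest one gave 0.03 ± 0.10. Krt7, the other duct keratin (5.11 to 5.97 over all arrays), and Sox9, the transcription factor of ducts and progenitors (6.05 to 6.68), had no call in any comparison.

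Of 11 further biliary genes tested, 3 fell with T3 in WT: the transcription factor Sox4 (-1.01 ± 0.30, adjusted p = 0.0322 by limma), the adhesion molecule Alcam (-0.43 ± 0.13, adjusted p = 0.0338) and Krt18 (-0.42 ± 0.13, adjusted p = 0.0441), a keratin that hepatocytes also make. In KO the T3 arrays of Alcam also lay below the PBS arrays (9.05 to 9.47 against 9.60 to 9.87). So did those of Krt18 (11.56 to 12.08 against 12.13 to 12.50), while Sox4 read 6.93 to 7.76 against 7.76 to 8.83. In GS the arrays of all 3 overlapped. They also overlapped in Y147F, where Alcam read 9.22 to 9.58 with T3 against 9.56 to 9.97 with PBS. Krt18 read 11.90 to 12.32 against 12.22 to 12.60 there. The further biliary genes went both ways in WT. Krt8 lay lower with T3 (12.27 to 12.40 against 12.44 to 12.56), and Pkhd1 lay higher (6.32 to 6.86 against 6.02 to 6.10). In Y147F 3 rose, Cdh1 (1.54 ± 0.35, adjusted p = 0.00619 by limma), Pkhd1 (0.99 ± 0.27, adjusted p = 0.0212) and Muc1 (0.52 ± 0.16, adjusted p = 0.0339). In KO and GS no further biliary gene was called. Unadjusted p-values under 0.05 numbered 5 in KO and 1 in GS, beside 10.4% and 7.01% of all genes. Single Y147F arrays stood out: with T3 Cdh1 read 8.47, 8.31 and 10.04 and Pkhd1 6.38, 6.12 and 7.11. With PBS Muc1 read 5.59, 5.70 and 4.98 and Pkhd1 5.54, 6.04 and 5.07. Both were lowest on Y147F PBS replicate 3, the array whose Actb 3' minus 5' signal was 0.80. Whether these 3 calls hold without those arrays was not tested. Of the 14 further endothelial genes, Cldn5 fell in WT (-0.36 ± 0.10, adjusted p = 0.0257). Eng, a TGF-β coreceptor, rose in Y147F (0.24 ± 0.06, adjusted p = 0.0178), and its T3 arrays also lay above the PBS arrays in WT (0.16 ± 0.06), KO (0.27 ± 0.06) and GS (0.19 ± 0.06) without a call. Of 14 further Kupffer genes, Fcna fell in Y147F (-0.52 ± 0.14, adjusted p = 0.0135). In GS 14 of 14 were above 0 with T3, with a median of 0.20 and no call by limma. Before adjustment 2 of them had a p under 0.05, beside 7.01% of all genes. The mean of this list was 8.58, 8.66 and 9.06 on the GS T3 arrays and 8.52 to 8.58 with PBS, so that 1 array stood out. Whether the signs hold without that array was not tested. Lrat, the enzyme that makes the retinyl esters stored by stellate cells, rose with T3 by 1.33 ± 0.22 in KO (adjusted p = 0.00865). It rose by 1.61 ± 0.22 in GS (adjusted p = 0.00092). Without T3, Lrat was lower than in WT in both KO (-1.15 ± 0.22, adjusted p = 0.00319) and GS (-1.13 ± 0.22, adjusted p = 0.00555), so that these rises start from a lower level. In WT its T3 arrays also lay above the PBS arrays, without a call (0.66 ± 0.22, adjusted p = 0.0648), and in Y147F they overlapped (0.24 ± 0.22).

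Across the genotypes, the background of calls was as follows. For KO against WT without T3, 2 markers were called (Clec4f higher, Krt23 lower) beside 6.87% of all genes, and 10 stood apart, 8 of them higher, beside 23.6%. For GS against WT without T3, 1 was called (Krt23) beside 2.95%. With T3, 1 was called in KO against WT (Krt23) beside 6.93%, and 3 in GS against WT (Cd24a and Clec4f higher, Krt23 lower) beside 5.59%, with 8 apart beside 24.8%. GS against KO with T3 gave no call by limma, beside 0.106%, and 4 markers had an unadjusted p under 0.05, beside 6.87% of all genes. Y147F against WT gave no call without T3 beside 0.0847%, and none with T3 beside 0.00706%. Unadjusted p-values under 0.05 numbered 2 without T3, beside 13.8% of all genes, and 6 with T3, beside 8.43%. Of the T3 responses, KO minus WT gave no call beside 3.09%, and GS minus WT gave 1 (Cd24a) beside 2.92%. For KO minus WT, 0 had an unadjusted p under 0.05, beside 12.5% of all genes. GS minus KO and Y147F minus WT gave no call, beside 0% of all genes. Unadjusted p-values under 0.05 numbered 7 and 3 in these, beside 5.71% and 5.34% of all genes.

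Markers of other blood cells were measured in the same RNA. The mean of 7 B cell markers lay between 6.62 and 6.97 in WT and Y147F with T3 and between 6.23 and 6.43 in the same genotypes with PBS. Ighm, the heavy chain of IgM, rose with T3 by 2.19 ± 0.30 in WT (adjusted p = 3.27e-05 by limma) and 2.19 ± 0.30 in Y147F (adjusted p = 4.26e-05 by limma). In WT it read 7.76, 7.55 and 7.88 with PBS and 10.04, 10.01 and 9.70 with T3. Of the 6 B cell markers tested, the adaptor Blnk rose by 1.18 ± 0.25 in Y147F (adjusted p = 0.00278), while its difference in WT did not pass (0.75 ± 0.25, adjusted p = 0.056). Cd79b, a chain of the B cell receptor, fell in Y147F (-0.32 ± 0.10, adjusted p = 0.0449), while its difference in WT did not pass (-0.17 ± 0.10). The other 3, Ms4a1, Cd22 and Jchain, differed by -0.10 to 0.14 in WT and Y147F, and the list's median was 0.08 in WT and -0.02 in Y147F. The T and NK cell markers lay between 5.41 and 5.80 and the neutrophil markers between 5.67 and 6.11 on all arrays. The part of such cells in the values of Cd24a and Vim was not tested.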

How the data were processed

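Liver RNA, 200 ng per array, was measured on Affymetrix arrays of 45101 probe sets. The deposited values are log2 intensities that the authors made with RMA, per the submitters' processing notes; the sources used here do not give its version. The 6 deposited Y147F columns are of another form, having lost the decimal mark, which was put back to give values from 3 to 16. Of their cells 775 (0.286%) that could also be spreadsheet dates were set missing, 1 of them a member's. The platform annotation gave 1 symbol for 34958 probe sets, several for 932 and none for 9211. The brightest probe set stood for a gene, and genes reaching the 40th percentile of their array in at least 3 arrays were tested. R 4.3.3 with limma 3.58.1 fitted 8 group means to all 24 arrays, with two-sided moderated tests and 16 contrasts. Steps were tested on simulated data for T3 in WT (13929 genes), recovering 88% of 1.5-fold changes and 98% of those of 2-fold. The changed genes were drawn at random from these, with noise independent between genes. The markers were not singled out there and moved together from array to array. These shares therefore do not apply to them, and a missing call does not show that a marker was unchanged. Values per array are given for called members, members apart by at least 0.5, and the brightest of each list. The members and lists were chosen with earlier results of these data known.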

Additional observations from a re-analysis of the deposited data

Results flagged for a closer look

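The T3 response of Cd24a differed between GS and WT by 2.34 (adjusted p = 0.0393 by limma), the T3 arrays lying below the PBS arrays in WT and above them in GS. The response of Ighm, a B cell marker and no member, differed from that of WT by -1.79 in KO (adjusted p = 0.0219 by limma) and by -1.77 in GS (adjusted p = 0.0251 by limma).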

How the results depend on the processing

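Counts of members called in KO against WT without T3 were 1 in place of 2 under quantile normalisation, no filter on low values, the mean of probe sets, robust moderation with a variance trend, and high title numbers as a covariate. Under the last 3 of these the T3 response of GS minus WT had 0 in place of 1. With the trend or the covariate, T3 in WT had 1 in place of 2 and T3 in KO 0 in place of 1. In fits of only the arrays compared, T3 in WT had 6, T3 in KO 0 and KO against WT with T3 0. With only the first submission T3 in KO had 0 and GS against WT with T3 had 5, and with array weights GS against WT with T3 had 5 and T3 in Y147F had 3 (Clec4g, Fcgr2b and Oit3). Leaving out each array in turn gave 1 to 2 calls for T3 in WT, 0 (without KO T3 replicate 1, among others) to 2 (without KO T3 replicate 2) for T3 in KO, 0 to 1 (without Y147F T3 replicate 1) for T3 in Y147F, 1 to 2 for KO against WT without T3, 0 to 1 with T3, 0 (without WT T3 replicate 2) to 5 (without GS T3 replicate 1) for GS against WT with T3, and 0 to 1 for the response of GS minus WT. The cholangiocyte median for T3 in WT was -0.51 with the mean of probe sets.

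With each array left out in turn, list medians moved most as follows. Sinusoidal endothelial medians ran from -0.285 to -0.0624 (without KO T3 replicate 1) for T3 in KO, -0.151 to 0.0449 (the same array) for KO against WT with T3 and -0.0494 (without KO T3 replicate 2) to 0.13 for the response of KO minus WT. Kupffer medians ran from 0.0329 (without GS T3 replicate 3) to 0.48 for T3 in GS, 0.20 (the same array) to 0.65 for GS against WT with T3 and -0.28 to 0.16 (without Y147F PBS replicate 2) for the response of Y147F minus WT. Cholangiocyte medians ran from -0.27 to 0.18 (without KO PBS replicate 1) for KO against WT and -0.47 to 0.14 (without KO PBS replicate 2) for GS against KO, both without T3, and 0.21 (without GS PBS replicate 2) to 0.67 for the response of GS minus KO. The stellate median of that response ran from 0.17 (without KO T3 replicate 1) to 0.52.

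No called value changed its sign in the settings run. The other 661 values of list medians moved by less than the pooled SD of their list mean, and the other 241 counts were equal or within 1.5 times. These SDs were 0.26 for Kupffer, 0.11 for sinusoidal endothelial, 0.22 for stellate and 0.225 for cholangiocyte markers. Many medians are no larger than this, so that a median could vanish within that limit. The Kupffer median for T3 in Y147F did so without PBS replicate 2. The tests of single probe sets and the signs without single arrays were chosen after seeing the data. The cause of these shifts was not tested. No paired analysis was possible because the replicate numbers were given in accession order and pair no arrays. The number of arrays limits the precision, and the Y147F group has no WT arrays of its own submission.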
